A study of Drosophila melanogaster with 40 samples.

Results

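MicroRNA genes of Drosophila melanogaster were examined for nearby chromatin peaks in embryos of 0.5 to 1.5 h. The members were the annotated dm6 genes whose symbol begins with mir-, which includes mir-ban (the gene bantam) and mir-let7 (let-7). There were 262 such genes, and 260 of them lay on the sequences that hold peaks, among 17796 annotated genes there. The other 2 lie on a separate ribosomal DNA sequence and were not analysed here. A locus was called in a list when a peak overlapped its hairpin or lay within 2 kb of it, and called in a group when this held in both of the group's lists.

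Chromatin immunoprecipitation sequencing (ChIP-seq) gave 14 peak lists, in 7 groups of 2 biological replicates, and each replicate was a separate collection of hand-picked embryos. GAF and Zelda (ZLD) were precipitated from M-Z+ dPCIF1 mutant embryos, whose mothers lacked dPCIF1 and which carry a zygotic copy of the gene, and from wild-type embryos (the strain w1118). dPCIF1, HIRA and RNA polymerase II phosphorylated at serine 5 (RNA Pol II-Ser5P) were precipitated from wild-type embryos only. The dPCIF1 alleles were null alleles made with CRISPR/Cas9, and the sources used here do not say which allele the ChIP embryos carried. Embryos were whole, so no cell type was selected. The lists held 3547 to 11661 peaks, as positions with no height, so the number of reads behind each list is unknown. A position called in one list and not in another can therefore differ in binding or in depth, and these cannot be told apart.

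MicroRNAs are short RNAs that repress messenger RNAs. RNA polymerase II makes a long primary transcript, Drosha cuts a hairpin out of it and Dicer releases the mature strand, whose seed pairs with the target. Many hairpins lie inside a host gene or in a cluster that is transcribed as one unit, so the site of transcription control can be far from the hairpin. In early fly embryos microRNAs are best known for clearing maternal messenger RNAs at the onset of zygotic transcription, a role of the mir-309 cluster. GAF and ZLD are pioneer factors that open chromatin at that time. HIRA is a chaperone of histone H3.3, and dPCIF1 is related to PCIF1, an enzyme that methylates the cap of messenger RNA in mammals.

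Mature sequences of 15 loci are shown because the results below turn on these families, with the seed (bases 2 to 8) in capitals. They were read from the dm6 genome (RefSeq annotation of mature products), 5′ to 3′, and are written with T for U. The first 6 share one seed, that of the K-box family, named after the target box in Notch pathway genes.
mir-2a-1, 3p arm, 14 lists: tATCACAGccagctttgatgagc
mir-2b-2, 3p arm, 14 lists: tATCACAGccagctttgaggagc
mir-2c, 3p arm, 14 lists: tATCACAGccagctttgatgggc
mir-13a, 3p arm, 14 lists: tATCACAGccattttgatgagt
mir-13b-1, 3p arm, 14 lists: tATCACAGccattttgacgagt
mir-11, 3p arm, 8 lists: cATCACAGtctgagttcttgc
mir-279, 3p arm, 14 lists: tGACTAGAtccacactcattaa
mir-996, 3p arm, 14 lists: tGACTAGAtttcatgctcgtct
mir-92a, 3p arm, 14 lists: cATTGCACttgtcccggcctat
mir-10, 5p arm, 14 lists: aCCCTGTAgatccgaatttgtt
mir-iab-4, 5p arm, 12 lists: aCGTATACtgaatgtatcctga
mir-iab-8, 5p arm, 12 lists: tTACGTATactgaaggtataccg
mir-ban, 3p arm, 13 lists: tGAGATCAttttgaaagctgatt
mir-124, 3p arm, 13 lists: tAAGGCACgcggtgaatgccaag
mir-let7, 5p arm, 3 lists: tGAGGTAGtaggttgtatagt

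Loci with the same seed did not have the same number of lists. The K-box seed was carried by a mature product of 14 hairpins, which were called in 3 to 14 lists (median 10). The seed of mir-279 and mir-996 was carried by 3 hairpins, called in 10 to 14 lists, and that of mir-92a by 6 hairpins, called in 3 to 14 lists. The seeds of mir-10, mir-iab-4, mir-iab-8, mir-ban, mir-124 and mir-let7 were each carried by 1 hairpin.

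At 4 units with a locus called in all 14 lists, the nearest peaks of these lists shared a stretch of DNA. Its central 300 bases are shown because the 5 proteins were called there on the same bases. Peaks other than the nearest, and loci called in fewer lists, were not searched for such stretches. Capitals mark GAGAG, the core of the GAF motif, and CAGGTA, the core of the ZLD motif, searched on both strands (the other strand reads CTCTC and TACCTG), and neighbouring matches may overlap. The strand shown is that of the hairpin.
mir-967 (intron of bun), chr2L:12459857-12460156, minus strand: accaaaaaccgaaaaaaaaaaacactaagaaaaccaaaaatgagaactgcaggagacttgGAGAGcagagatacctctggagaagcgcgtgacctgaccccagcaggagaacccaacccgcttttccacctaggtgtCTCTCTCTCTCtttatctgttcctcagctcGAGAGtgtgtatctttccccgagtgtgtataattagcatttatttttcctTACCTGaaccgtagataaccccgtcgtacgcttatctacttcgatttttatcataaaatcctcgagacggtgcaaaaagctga
mir-2c to mir-13b-1 (upstream of mir-2c), chr3R:15418192-15418491, minus strand: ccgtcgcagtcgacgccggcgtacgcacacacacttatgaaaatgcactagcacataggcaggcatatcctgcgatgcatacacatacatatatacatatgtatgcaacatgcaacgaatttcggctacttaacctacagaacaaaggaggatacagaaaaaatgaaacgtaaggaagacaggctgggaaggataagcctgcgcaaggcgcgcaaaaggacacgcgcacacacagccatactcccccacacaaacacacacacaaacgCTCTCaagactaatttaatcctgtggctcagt
mir-279 to mir-996 (upstream of mir-279), chr3R:29215012-29215311, plus strand: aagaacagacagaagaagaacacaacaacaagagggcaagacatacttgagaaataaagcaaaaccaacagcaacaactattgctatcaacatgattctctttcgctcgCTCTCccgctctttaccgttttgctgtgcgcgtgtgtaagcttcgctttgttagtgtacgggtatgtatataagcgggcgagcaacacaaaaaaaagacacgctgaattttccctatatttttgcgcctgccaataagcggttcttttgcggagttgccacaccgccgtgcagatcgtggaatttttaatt
mir-4962 (intron of Tlk), chrX:3777254-3777553, plus strand: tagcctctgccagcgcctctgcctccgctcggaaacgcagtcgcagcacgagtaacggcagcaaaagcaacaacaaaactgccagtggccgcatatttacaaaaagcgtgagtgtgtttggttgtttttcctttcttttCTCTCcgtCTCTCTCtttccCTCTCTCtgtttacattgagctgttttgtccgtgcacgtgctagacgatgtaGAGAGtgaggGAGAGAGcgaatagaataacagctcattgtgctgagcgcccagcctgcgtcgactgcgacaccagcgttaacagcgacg

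GAGAG occurred 6 times in the mir-967 window, 8 times in the mir-4962 window and once in each of the other windows. CAGGTA occurred once, in the mir-967 window. Among 300-base windows at the centres of all peaks, GAGAG was present in 60.2% for mutant GAF and 59.4% for wild-type GAF. CAGGTA was present in 17.0% of the windows for mutant ZLD and 17.8% for wild-type ZLD. A match describes letters and is not a site.

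**Figure D1:**
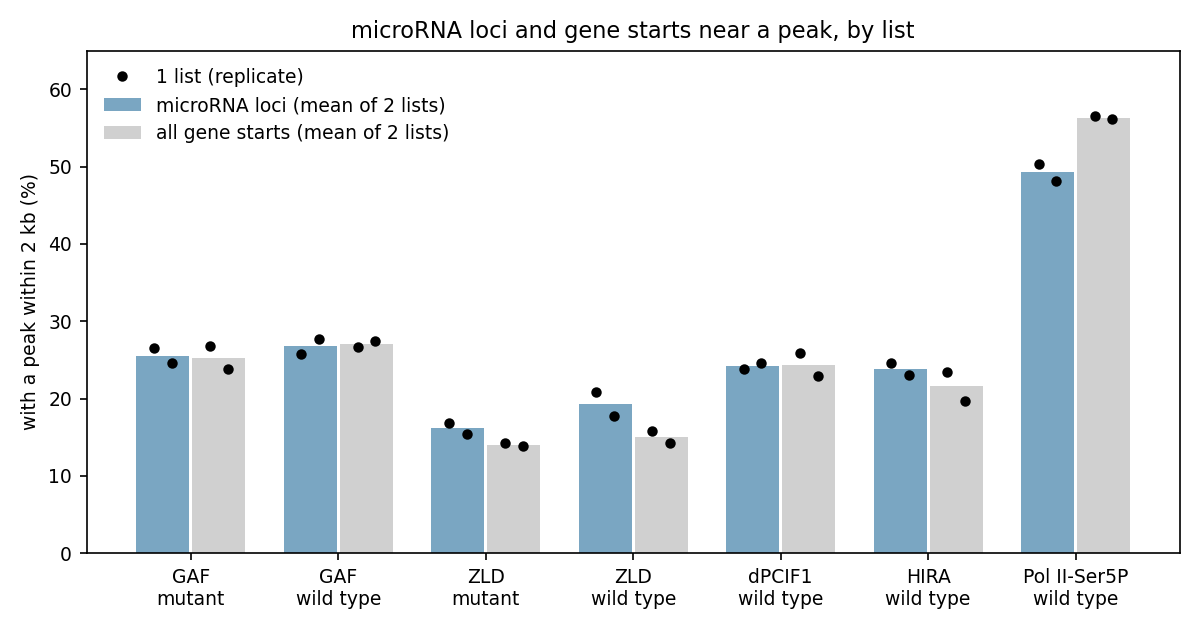
Percent of 260 microRNA loci (blue bars) and of 17796 gene starts (grey bars) with a peak within 2 kb. Bars are means of 2 lists, points are single lists, and the 7 groups run from left to right. The blue bar stands above the grey one for ZLD and HIRA and below it for RNA Pol II-Ser5P, where it is at 49.2%.

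The first question was how many microRNA loci each protein was called at. The same rule was applied to the annotated start of every gene as background, with the whole hairpin used for microRNA loci and the start position used for genes. GAF was called at 69 and 64 loci in the mutant lists, where 26.8% and 23.8% of gene starts were called. It was called at 67 and 72 loci in the wild-type lists, where 26.7% and 27.4% of gene starts were called. These are 24.6% to 27.7% of the loci, so the loci were called for GAF about as often as genes in general.

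ZLD was called at 44 and 40 loci in the mutant lists (background 14.3% and 13.8%) and at 54 and 46 loci in the wild-type lists (background 15.8% and 14.2%). The ZLD share of loci was above the background in each of these lists, by at most 5 percentage points, with every hairpin of a cluster counted. dPCIF1 was called at 62 and 64 loci (background 25.9% and 22.9%), and HIRA at 64 and 60 loci (background 23.5% and 19.7%). RNA Pol II-Ser5P was called at 131 and 125 loci (background 56.5% and 56.2%), which is 50.4% and 48.1% of the loci. RNA Pol II-Ser5P was thus called at a smaller share of the loci than of gene starts in both lists.

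When both lists had to agree, GAF was called at 63 loci in the mutant and 64 in the wild type, with 22.8% and 24.7% of gene starts called. ZLD was called at 36 loci in the mutant and 35 in the wild type, with 11.8% and 11.1% of gene starts called. dPCIF1 was called at 53 loci (19.3% of gene starts), HIRA at 56 (16.1%) and RNA Pol II-Ser5P at 122 (53.3%). As a share of the loci, HIRA was at 21.5% and RNA Pol II-Ser5P at 46.9%, so HIRA lay above its background and RNA Pol II-Ser5P below it. With each cluster counted once, over 203 clusters and single loci, ZLD was called at 24 in the mutant (11.8%) and 21 in the wild type (10.3%), which is not above its background. Counted that way, HIRA was at 19.2%, dPCIF1 at 17.2% and RNA Pol II-Ser5P at 47.8%.

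The call in both lists did not always rest on one place. The nearest peaks of the 2 replicates overlapped each other at 58 of 63 loci for mutant GAF and 54 of 64 for wild-type GAF. They overlapped at 30 of 36 for mutant ZLD and 27 of 35 for wild-type ZLD. For dPCIF1 they overlapped at 29 of 53 loci and lay apart at 24, the lowest share of the 7 groups. Neighbouring hairpins also share peaks, and the 53 dPCIF1 loci belong to 35 clusters or single loci.

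**Figure D2:**
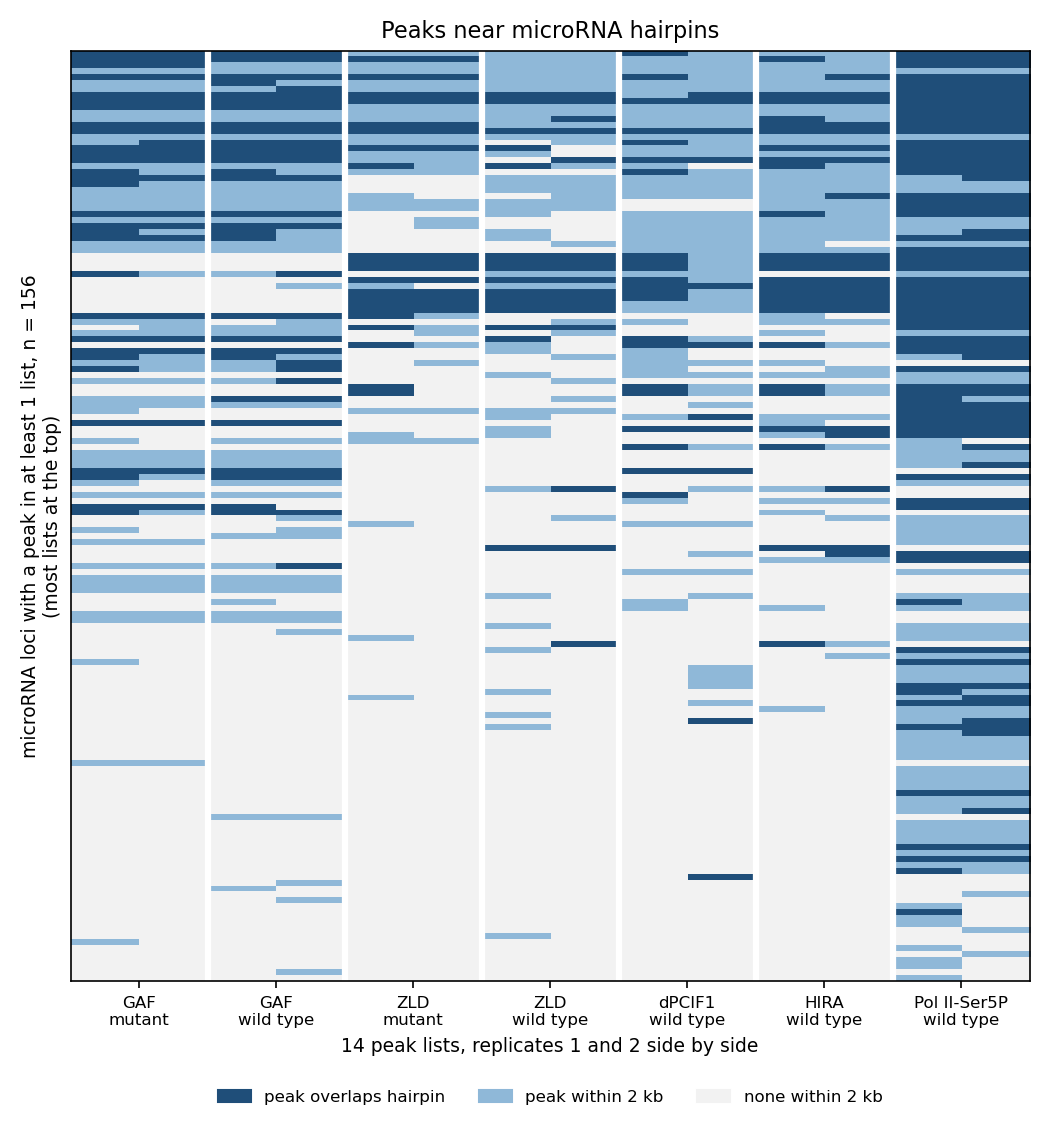
The 156 loci called in at least 1 list (rows, most lists at the top) in the 14 lists (columns, replicates side by side). Dark cells mark a peak that overlaps the hairpin, pale blue cells a peak within 2 kb and grey cells no peak within 2 kb. The top block is coloured in every column, and the lower rows are coloured mostly in the RNA Pol II-Ser5P columns.

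Of the 260 loci, 104 (40.0%) were called in none of the 14 lists, and 31.9% of gene starts were called in none. At the other end, 15 loci (5.77%) were called in all 14, beside 4.72% of gene starts. In the wild type, RNA Pol II-Ser5P and no other protein was called in both lists at 47 loci, which is 18.1% of the loci beside 23.9% of gene starts. All 5 proteins were called in both wild-type lists at 18 loci in 12 clusters or single loci, which is 6.92% of the loci and near the 5.21% of gene starts. ZLD, dPCIF1, HIRA and RNA Pol II-Ser5P without GAF were called at 9 loci (3.46%, beside 1.03% of gene starts), and 8 of these are the mir-309 cluster described below.

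The proteins were called at overlapping sets of loci. Of the 35 wild-type ZLD loci, 32 also had HIRA, which is 91.4% of the ZLD loci and 57.1% of the 56 HIRA loci. Over gene starts, 69.0% of those with ZLD also had HIRA. Of the 53 dPCIF1 loci, 46 also had HIRA, which is 86.8% of the dPCIF1 loci and 82.1% of the HIRA loci, beside 63.2% of dPCIF1 gene starts. RNA Pol II-Ser5P was called at 96.2% of dPCIF1 loci and 94.6% of HIRA loci, beside 97.6% and 96.0% of gene starts. These shares are counts over loci that share clusters, and no test was made of them.

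The 15 loci called in all 14 lists belong to 11 clusters or single loci. They include mir-10, which lies between Hox genes and is in an exon of lncRNA:CR42651, and mir-7 in an intron of HnRNP-K, a microRNA of eye and other sensory organ development. They also include mir-2c, mir-13a and mir-13b-1 in lncRNA:CR45911 and mir-2a-1 and mir-2b-2 in introns of spi, which encodes an EGF receptor ligand. The others are mir-279 and mir-996 in lncRNA:CR31044, mir-92a in jigr1, mir-967 in bun, mir-2282 in sty (an inhibitor of receptor tyrosine kinase signalling), mir-4968 in Mob2, mir-4962 in Tlk and mir-9377 in Tis11. By class, 9 of the 15 are intronic and 6 lie in exons of non-coding hosts.

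Being called in all lists did not mean that a peak covered the hairpin. At mir-967 and mir-4962 the distance was 0 bp in every list. At mir-7 it was 1542 and 1616 bp in the mutant GAF lists and 1589 and 1633 bp in the wild-type GAF lists, and 0 bp in both RNA Pol II-Ser5P lists. At mir-10 the hairpin lay inside the GAF peak in all 4 lists, and the ZLD peaks were 65 and 124 bp away in the mutant and 269 and 858 bp away in the wild type.

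At mir-279, a microRNA that restricts the formation of carbon dioxide sensing neurons, GAF peaks covered the hairpin in both genotypes. ZLD peaks covered it in both mutant lists and lay 99 and 32 bp away in the wild-type lists. At mir-4962, the GAF peaks were 11798 and 11768 bp wide in the mutant and 11824 and 11842 bp wide in the wild type, and the ZLD peaks were 347 and 473 bp wide in the mutant and 355 and 365 bp wide in the wild type. The widths of the 2 genotypes were alike there, and GAF peaks were far wider than the median over all GAF peaks (664 bp in the mutant and 652 bp in the wild type).

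The mir-309 cluster holds 8 hairpins (mir-309, mir-3, mir-286, mir-4, mir-5, mir-6-1, mir-6-2 and mir-6-3) at positions 19660716 to 19661774 of chromosome arm 2R, on the minus strand, in an exon of lncRNA:CR44504. All 8 hairpins were called for ZLD in both mutant lists and in both wild-type lists. They were also called in both lists of dPCIF1, HIRA and RNA Pol II-Ser5P. No hairpin of the cluster was called for GAF in any list of either genotype. The nearest GAF peaks to mir-309 were 6775 and 7032 bp away in the mutant lists and 6937 and 6777 bp away in the wild-type lists.

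The ZLD peak over mir-309 was 3310 and 2030 bp wide in the mutant lists and 3610 and 3352 bp wide in the wild-type lists, so it was narrowest in mutant replicate 2. HIRA peaks of 2745 and 2382 bp and RNA Pol II-Ser5P peaks of 3329 and 4112 bp covered the same hairpin. The dPCIF1 peaks were shorter, with a peak of 756 bp over mir-309 in replicate 1, and in replicate 2 a peak of 869 bp lying 1040 bp downstream of mir-309. Replicate 1 had another peak at about the place of the replicate 2 peak, as the map of the cluster shows.

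**Figure D3:**
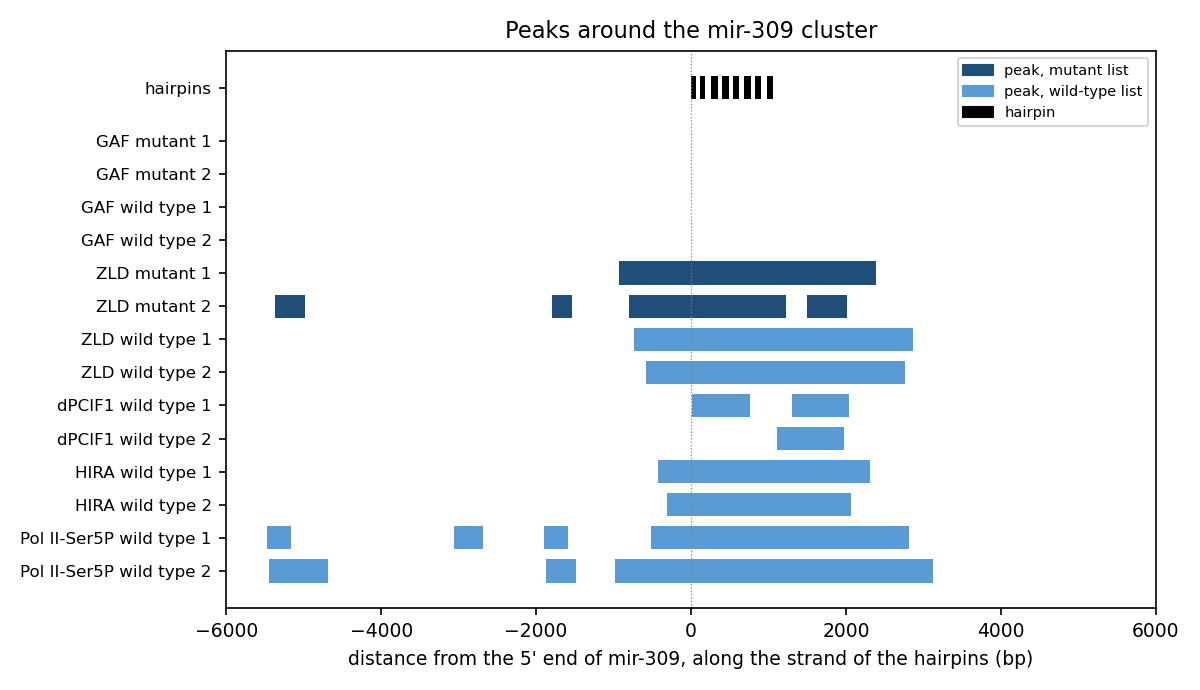
Peaks of the 14 lists (rows) around the 8 hairpins of the mir-309 cluster (black), by distance in bp from the 5′ end of mir-309 along the strand of the hairpins. Dark bars are mutant lists and pale bars are wild-type lists. The 4 GAF rows are empty within 6000 bp, and each of the other rows has a peak within 2 kb of the hairpins.

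The mir-310 cluster is intergenic and holds 7 hairpins (mir-992, mir-991, mir-2498, mir-313, mir-312, mir-311 and mir-310) at positions 20583752 to 20585405 of chromosome arm 2R, on the minus strand. The mir-310 to mir-313 hairpins share their seed with mir-92a and mir-92b. All 7 hairpins were called for GAF in both mutant and both wild-type lists. For ZLD, 0 and 0 of the 7 hairpins were called in the mutant lists, against 6 and 5 in the wild-type lists. The nearest ZLD peak to mir-310 was 14039 and 14031 bp away in the mutant lists, against 1268 and 659 bp in the wild-type lists.

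The wild-type ZLD peaks near mir-310 were 625 and 505 bp wide. They lay downstream of the hairpins and did not overlap each other, with a gap of 104 bp between them. Under the requirement that replicate peaks overlap by at least 20%, they would not form one region. GAF peaks of 2288 and 2226 bp in the mutant and 2217 and 2246 bp in the wild type overlapped the same hairpin. dPCIF1 peaks lay 945 and 1120 bp from mir-310 and HIRA peaks 1565 bp away in both lists.

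**Figure D4:**
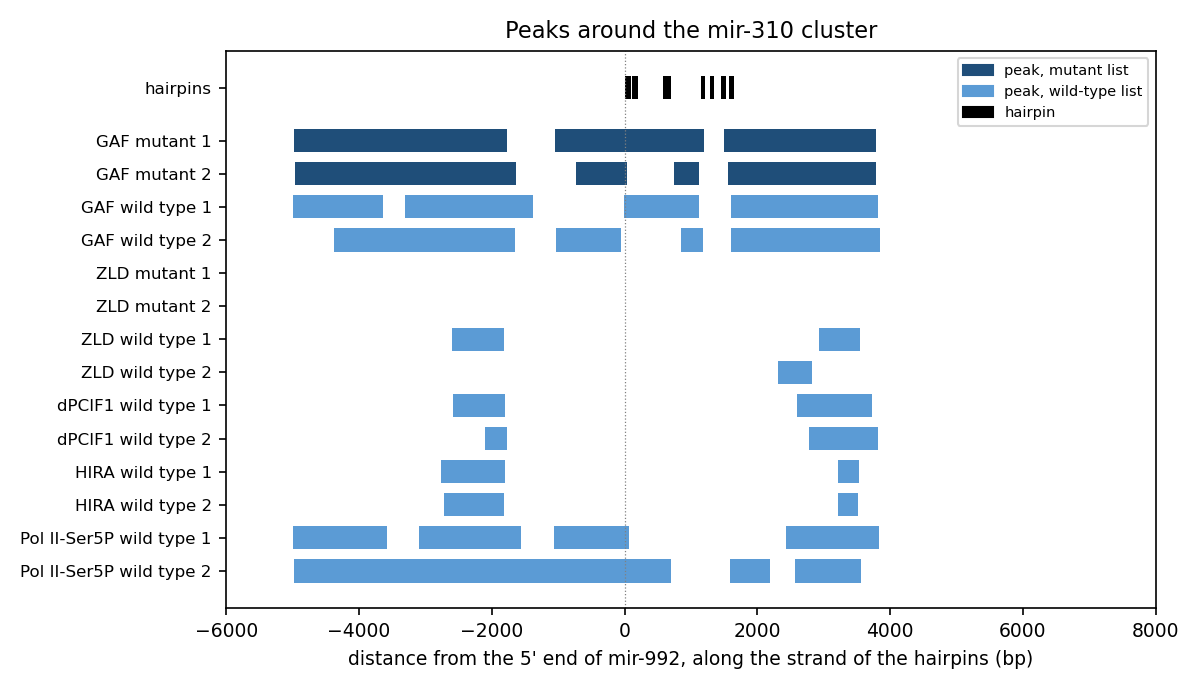
Peaks of the 14 lists (rows) around the 7 hairpins of the mir-310 cluster (black), by distance in bp from the 5′ end of mir-992 along the strand of the hairpins. Dark bars are mutant lists and pale bars are wild-type lists. The ZLD mutant rows are empty in the span shown, and the wild-type ZLD rows have peaks of 625 and 505 bp downstream, with a further upstream peak in replicate 1.

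Among the other lists of related microRNAs, the K-box list held 13 of the 14 hairpins with that seed and left out mir-5 of the mir-309 cluster. The 13 belong to 7 clusters or single loci. RNA Pol II-Ser5P was called in both lists at all 13, beside 53.3% of gene starts. HIRA was called at 11 (84.6%, beside 16.1%) and dPCIF1 at 9 (69.2%, beside 19.3%). GAF was called at 7 of them in each genotype (53.8%, beside 22.8% of gene starts in the mutant and 24.7% in the wild type). ZLD was called at 9 in the mutant (69.2%, beside 11.8%) and 8 in the wild type (61.5%, beside 11.1%). The list includes mir-6-1 to mir-6-3 of the mir-309 cluster, the 3 hairpins in spi and the 3 of the mir-2c to mir-13b-1 cluster. Each hairpin was counted, so these percentages rest in large part on few clusters. Outside the clusters already described, mir-2b-1 in Btk had HIRA and RNA Pol II-Ser5P in both lists and no GAF or ZLD. At mir-13b-2 in CCT2, RNA Pol II-Ser5P was the 1 protein called in both lists, and mir-308 in RpS23 had HIRA and RNA Pol II-Ser5P. mir-11, in an intron of the cell cycle gene E2f1, lay inside a GAF peak in all 4 lists.

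The Hox complexes hold mir-993, mir-10, mir-iab-4 and mir-iab-8. mir-10 was called in all lists and mir-993 in none. mir-iab-4 and mir-iab-8 are read from opposite strands of the same hairpin, repress Ubx and other Hox genes, and cannot be told apart in ChIP. They were called in 12 lists, with the 2 dPCIF1 lists missing. The GAF peak was 624 and 573 bp from mir-iab-4 in the mutant lists and 624 and 128 bp away in the wild-type lists.

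The let-7 complex (mir-100, mir-let7 and mir-125) acts at metamorphosis and is 1 cluster. It was called for RNA Pol II-Ser5P in both lists, beside 53.3% of gene starts, and for ZLD in 1 wild-type list. GAF, dPCIF1 and HIRA were not called there in any list. The 19 listed hairpins of the testis-biased clusters, among them mir-972 to mir-979 and mir-959 to mir-964, were called in none of the 14 lists. They belong to 3 clusters, and 31.9% of gene starts were called in no list. The list leaves out mir-9369, mir-2499, mir-4966-1 and mir-4966-2 of these clusters, which were also called in none. Of the 5 mir-9 family hairpins, in 3 clusters or single loci, GAF was called at 0 in both genotypes. Over gene starts the GAF shares were 22.8% in the mutant and 24.7% in the wild type. mir-9a had ZLD in both mutant lists, at 0 and 1533 bp, while the nearest peak of wild-type replicate 2 lay just outside the limit, at 2034 bp.

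Single conserved microRNAs differed widely among themselves, and 19 of the 20 listed were found, in 17 clusters or single loci. The list was chosen with earlier results of these data known. GAF was called at 12 of them in the mutant (63.2%, beside 22.8% of gene starts) and 11 in the wild type (57.9%, beside 24.7%). At 12 of them RNA Pol II-Ser5P was called (63.2%, beside 53.3%). The other proteins were also above their gene-start shares, with HIRA at 47.4% (beside 16.1%) and dPCIF1 at 42.1% (beside 19.3%). ZLD was at 26.3% in the mutant (beside 11.8%) and 21.1% in the wild type (beside 11.1%). mir-ban, which promotes growth and survival of cells, was called in 13 lists, and the missing one is dPCIF1 replicate 2, where the nearest peak was 2019 bp away. mir-124, a neural microRNA, was also called in 13 lists, with ZLD wild-type replicate 1 missing, where the nearest peak was 161425 bp away. mir-1, a muscle microRNA, had HIRA and RNA Pol II-Ser5P in both lists and no GAF. mir-184 and mir-31b were called in none.

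**Figure D5:**
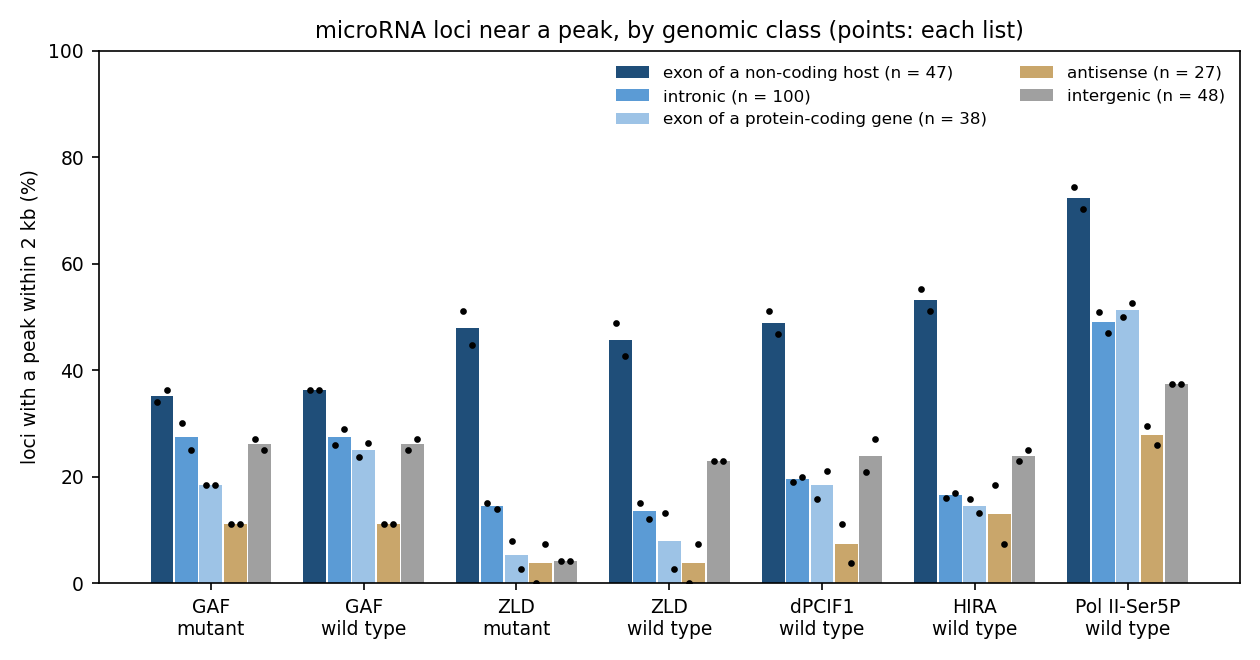
Percent of loci with a peak within 2 kb by position of the hairpin, for the 7 groups. Bars are means of 2 lists and points are single lists. Loci in exons of non-coding hosts have the tallest bar in each group, and the intergenic bar for ZLD is at 4.17% in the mutant and 22.9% in the wild type.

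The loci were then split by position. The hairpin was intronic on the same strand at 100 loci, in an exon of a non-coding host at 47, in an exon of a protein-coding gene at 38, antisense to a gene at 27 and intergenic at 48. RNA Pol II-Ser5P was called in both lists at 33 of 47 non-coding host loci (70.2%), 45.0% of intronic loci, 50.0% of protein-coding exon loci, 37.5% of intergenic loci and 25.9% of antisense loci. HIRA was called at 51.1% of non-coding host loci, against 15 of 100 intronic loci and 22.9% of intergenic loci. dPCIF1 was called at 46.8% of non-coding host loci, 17.0% of intronic loci and 18.8% of intergenic loci. The non-coding host loci were the class called most often for each of these proteins, and they hold the mir-309 cluster of 8. Of these 47 loci, 29 lay within 2 kb of the start of a host or other non-microRNA gene.

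For comparison, 7.62% of intronic bases and 6.83% of intergenic bases lay within 2 kb of HIRA peaks in both lists. For dPCIF1 these were 7.64% of intronic and 4.85% of intergenic bases. For RNA Pol II-Ser5P they were 21.8% of intronic and 12.9% of intergenic bases. Intronic and intergenic loci were thus called at higher percentages than their sequence class for these proteins. Loci in protein-coding exons were not all so, with dPCIF1 at 10.5% beside 12.1% of exonic bases. RNA Pol II-Ser5P was at 50.0% of them beside 47.8% of exonic bases, and HIRA at 10.5% beside 9.2%. ZLD was at 2.63% of them in each genotype, beside 7.69% of exonic bases in the mutant and 6.79% in the wild type. Of the 48 intergenic loci, 28 lay within 2 kb of the start of a gene that is not a microRNA gene. HIRA was called at 10 of these 28, dPCIF1 at 9 and RNA Pol II-Ser5P at 16, against 1, 0 and 2 of the other 20. Each hairpin was counted here. The 28 include the 7 hairpins of the mir-310 cluster, and the 20 include the intergenic hairpins of the mir-972 to mir-979 cluster. Most of these intergenic calls thus lay near such starts, and the parts of starts and of clusters in them were not tested. By clusters or single loci, HIRA was called at 7 of 30 intergenic units, dPCIF1 at 4 and RNA Pol II-Ser5P at 11. Of the 55 intronic loci without such a start, HIRA was at 7, dPCIF1 at 7 and RNA Pol II-Ser5P at 18. Counting clusters once, dPCIF1 was called at 11 of 32 non-coding host units and 15 of 90 intronic units. HIRA was called at 13 of 32 and 13 of 90, and RNA Pol II-Ser5P at 20 of 32 and 42 of 90.

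GAF was called at 25.0% of intronic loci in the mutant and 25.0% in the wild type, and at 25.0% of intergenic loci in each genotype. The bases of these classes lay within 2 kb of GAF peaks in both lists at 16.8% and 11.0% in the mutant and 17.6% and 11.9% in the wild type. In each genotype the called intergenic loci were 12, in 6 of 30 clusters or single loci, and 7 of them are the mir-310 cluster. GAF was called at 11 of the 28 intergenic loci near the start of a non-microRNA gene and at 1 of the other 20. ZLD was called at 2 and 2 of 48 intergenic loci in the mutant lists, against 11 and 11 in the wild-type lists, in 2 and 2 clusters or single loci against 6 and 7. Over all intergenic bases, 9.9% lay within 2 kb of ZLD peaks in both mutant lists and 9.14% in both wild-type lists. The matching shares of the 48 loci, called in both lists, were 4.17% in the mutant and 12.5% in the wild type. The difference between genotypes in the intergenic loci was not tested. Called in both lists were 2 loci in the mutant and 6 in the wild type, in 2 and 3 clusters or single loci, and the 6 are the hairpins mir-310 to mir-313 and the ribosomal DNA copies mir-10404-4 and mir-10404-5.

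The start of a gene that is not a microRNA gene, the host included, lay within 2 kb of 135 of the 260 hairpins. RNA Pol II-Ser5P was called in both lists at 63.7% of these 135 and 28.8% of the other 125. HIRA was called at 29.6% and 12.8%, and dPCIF1 at 28.1% and 12.0%. GAF was called at 29.6% and 18.4% in the mutant and at 29.6% and 19.2% in the wild type. Loci near such a start were thus called more often. The start can be that of the host itself, as at mir-309, where it is 73 bp away. The part of a host or a neighbouring gene in a call was not tested.

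Peaks at the start of the host gene were examined for hosted loci, within 1 kb of any start of a transcript that spans the hairpin. Of 100 intronic loci, 54 had a GAF peak at a host start in both mutant lists and 55 in both wild-type lists. Under the same rule, with any transcript start of a gene counted, 19.9% of the 17536 other genes were called for GAF in the mutant and 21.8% in the wild type. At 30 of the intronic loci in each genotype a host start was called and the hairpin was not. RNA Pol II-Ser5P was called at a host start for 72 intronic loci and at the hairpin for 45, beside 49.3% of the other genes. Intronic hosts had a median of 2 such starts and the other genes 1, and the part of this in the counts was not tested. The median distance to the nearest host start was 3026.5 bp for intronic loci and 1068 bp for non-coding host loci. A host was counted once for each of its hairpins, such as the 4 in grp and the 3 in Gmap, and each other gene was counted once. The hairpin count therefore leaves out many loci whose host start was called.

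The last comparison asked whether the number of loci differed between M-Z+ dPCIF1 mutant and wild-type embryos. For GAF, the log2 number of loci differed by -0.06, mutant minus wild type (two-sided exact permutation test, p = 0.667, n = 2 lists each). For ZLD the difference was -0.25 (p = 0.333 by the same exact test), and the mutant lists (44 and 40) did not overlap the wild-type lists (54 and 46). The smallest p that 2 against 2 allows is 0.333, so this design cannot reach a threshold of 0.05. Over all gene starts the log2 difference was -0.10 for GAF and -0.10 for ZLD (p = 0.667 each, exact permutation test), so neither set of loci was shown to differ between genotypes.

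Loci were called gained when both mutant lists and neither wild-type list had a peak within 2 kb, lost in the reverse case, and kept when all 4 lists had one. For GAF, 2 loci were gained, 2 lost and 59 kept, beside 0.804%, 2.1% and 21.0% of gene starts. The gained and lost loci were each 0.769% of the 260. For ZLD, 3 loci were gained, 6 lost and 28 kept, which is 1.15%, 2.31% and 10.8% of the loci, beside 1.01%, 0.938% and 9.16% of gene starts. The 6 lost ZLD loci belong to 3 clusters or single loci, so the share of lost loci rests on few places. The counts moved with the limit. At 1 kb, 1 locus was gained and 0 lost for GAF, and 1 gained and 3 lost for ZLD, and mir-310 to mir-313 were not among the lost. At 5 kb, 2 were gained and 7 lost for GAF, and 1 gained and 10 lost for ZLD, with mir-310 to mir-313 among the lost.

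The gained GAF loci were mir-263b in meru and mir-1011 in Ir93a. For mir-263b, a microRNA of sensory bristles, the nearest GAF peak was 564 and 512 bp away in the mutant lists, against 15576 and 16049 bp in the wild-type lists. For mir-1011 it was 1380 and 1379 bp away in the mutant lists, against 6247 and 22191 bp in the wild-type lists. At both loci the mutant replicates' peaks overlapped each other, by 421 bp at mir-263b and 360 bp at mir-1011. These were narrow peaks of 361 to 473 bp. At 1 kb mir-263b was still gained and mir-1011 was not, and at 5 kb both were.

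The lost GAF loci were mir-4982 in Hs3st-A and mir-1009 in CG3860. At mir-4982 the nearest GAF peak was 2497 and 2498 bp away in the mutant lists, against 1796 and 1887 bp in the wild-type lists. At mir-1009 it was 4525 and 13076 bp away in the mutant lists, against 1886 and 1835 bp in the wild-type lists. Neither locus was lost at 1 kb or at 5 kb, so both losses depended on the limit, at mir-4982 more closely than at mir-1009.

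The gained ZLD loci were mir-1004, mir-2a-2 and mir-1000. At mir-2a-2 the nearest ZLD peak was 1780 and 1765 bp away in the mutant lists, against 2055 and 2009 bp in the wild-type lists, and at mir-1004 it was 1837 and 1875 bp against 2390 and 2404 bp. Both gains turned on the limit. At mir-1000, a microRNA of the nervous system, ZLD peaks lay at 0 and 851 bp in the mutant lists, against 5189 and 4701 bp in the wild-type lists, but the mutant peaks were 637 bp apart.

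The lost ZLD loci were mir-310, mir-311, mir-312 and mir-313 of the cluster above, and mir-10404-4 and mir-10404-5. The mir-10404 hairpins lie in copies of the ribosomal DNA repeat. The nearest ZLD peak to mir-10404-5 was 51421 and 72631 bp away in the mutant lists, against 0 and 0 bp in the wild-type lists. At mir-10404-4 it was 18483 and 18366 bp away in the mutant lists, against 72 and 0 bp in the wild-type lists. HIRA was also called at both of these loci in both lists. Reads that map to several places had been removed by the authors before peak calling, so calls in such repeats are uncertain.

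Motif content was described for the peaks nearest to the called loci. GAGAG was present in 87.7% and 82.7% of these GAF peaks in the mutant lists, beside 77.5% and 83.7% of all GAF peaks, and in 89.1% and 85.0% in the wild-type lists, beside 80.1% and 79.5%. CAGGTA was present in 26.7% and 29.6% of the ZLD peaks in the mutant lists, beside 31.8% and 32.1% of all ZLD peaks. In the wild-type lists it was present in 28.6% and 24.1%, beside 28.3% and 31.5%. GAF peaks near microRNA loci were wider (median 979 bp in the mutant and 1027 bp in the wild type) than all GAF peaks (664 bp and 652 bp), and a wider peak holds more letters to match. Per kb, GAGAG matches numbered 4.27 and 4.31 in the mutant lists (all GAF peaks 4.90 and 5.29). In the wild-type lists they numbered 4.18 and 4.09 (5.04 and 5.09). CAGGTA matches per kb were 0.37 and 0.57 in the mutant lists (all ZLD peaks 0.63 and 0.64). In the wild-type lists they were 0.46 and 0.39 (0.66 and 0.71).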

How the data were processed

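ChIP-seq peak lists of 14 samples were used, and the other 26 of the 40 samples were not analysed here. As the authors and their submitted processing notes describe it, reads were trimmed (Trimmomatic 0.39), mapped to dm6 (Bowtie2 2.2.5), freed of duplicates and of reads with several positions or low quality (SAMtools 1.18), and each replicate's peaks were called by MACS2 2.2.7.1 under a limit on the q-value. The notes also name deepTools 3.5.1. The deposited lists hold the chromosome, start and end of each peak, in bp, so depth is unknown and no interval was computed. No peak ran past the end of its sequence in the dm6 genome used here.

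Genes came from the FlyBase annotation (BDGP 6.54), without transposable elements and 485 entries of mature products. Hairpins on one strand with gaps of up to 10 kb formed a cluster. Groups and replicate numbers came from the sample titles. The members, the lists of related microRNAs and the named loci were chosen with earlier results of these data known. Named loci were those of the fixed lists, those called in all lists, and those gained or lost. Genotypes were compared by exact permutation tests of log2 counts. The alternatives changed the distance limit, the replicate rule, the peak width, the list length, the members counted and the replicate block. Scripts were tested on simulated data. Python 3.11.15, numpy 2.4.6, pandas 2.3.3 and matplotlib 3.10.9 were used.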

Additional observations from a re-analysis of the deposited data

How the results depend on the processing

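The limit of 2 kb set most counts. With a peak required to overlap the hairpin, the loci called in both lists numbered 22 for mutant GAF, 23 for wild-type GAF, 15 for mutant ZLD, 13 for wild-type ZLD, 7 for dPCIF1, 17 for HIRA and 62 for RNA Pol II-Ser5P. At 5 kb they were 98, 98, 59, 63 and 82 for mutant GAF, wild-type GAF, mutant ZLD, wild-type ZLD and dPCIF1, and at 1 kb dPCIF1 had 30. Calls in either list gave 65 for wild-type ZLD. Peaks of at least 500 bp gave 34 for dPCIF1 and 37 for HIRA, and lists of equal length gave 73 for RNA Pol II-Ser5P. Counting clusters once gave 21 for wild-type ZLD and 35 for dPCIF1. Without replicate 1 or replicate 2, wild-type ZLD had 46 to 54 loci. An alternative chosen after seeing the data kept the loci with no start of a host or other non-microRNA gene within 2 kb. It gave 23, 24, 14, 13, 15, 16 and 36 in the order of the first sentence of counts. Consensus regions at 20% and 50% overlap and the members with a RefSeq microRNA biotype stayed within 1.5 times in all 7 groups. The genotype difference changed sign for GAF at 1 kb (0.043, exact permutation p = 1.0) and for ZLD with overlap required (0.106, exact permutation p = 1.0). The genotypes share replicate numbers that the labels tie to no shared collection, and the replicates' deviations correlated at -0.10 for GAF and 0.05 for ZLD over 260 loci. With the replicate block, differences were -0.06 for GAF (exact sign-flip p = 1.0) and -0.25 for ZLD (p = 0.5, the smallest that 2 pairs allow), and the call changed in neither. Leaving out 1 list gave -0.12 to -0.01 for GAF and -0.36 to -0.13 for ZLD. For ZLD, counting clusters once gave -0.14 and peaks of at least 500 bp gave -0.16. Without the mir-10404 loci, also chosen after seeing the data, ZLD was at -0.17. Without loci near the start of a host or other non-microRNA gene it was at -0.0026.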
